A study of Canis lupus familiaris with 8 samples.

Results

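Transcripts of 7 genes of inflammatory cytokine signalling were examined in the hearts of 8 male dogs, 4 controls and 4 with hyperhomocysteinemia (HHcy), in which too much of the amino acid homocysteine circulates. The genes sought were 9: the cytokines IL6, IL1B and TNF, the receptors IL6ST and TLR4, the kinase JAK2, the transcription factor STAT3, and the feedback inhibitors SOCS3 and NFKBIA. Members were taken as every probe set to which the array's annotation gives 1 of these symbols and no other. No probe set carried JAK2 or SOCS3 alone, so both were not analysed here. The remaining 7 genes had 13 probe sets, out of 10549 probe sets with 1 symbol on the array. IL1B had 7 of them and each other gene had 1.

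The HHcy dogs had methionine added to their drinking water for 2 weeks, and the labels name no treatment for the controls. All dogs weighed 23 to 27 kg, and RNA of the cardiac tissue of each dog was measured on its own Affymetrix canine array. The labels do not name the chamber, the breed or the age. The comparison asks how chronic HHcy changes cardiac gene expression.

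Interleukin 6 binds its receptor and then the shared signal transducer gp130, which IL6ST encodes. JAK kinases bound to gp130 phosphorylate STAT3, which enters the nucleus and switches on acute-phase genes and its own brake, SOCS3. Interleukin 1 beta, tumor necrosis factor and ligands of the Toll-like receptor TLR4 act through NF-kB, which NFKBIA holds in the cytoplasm and which in turn drives IL6, IL1B, TNF and NFKBIA itself. In the heart these cytokines are made by resident and recruited macrophages, and also by endothelial cells, fibroblasts and stressed myocytes. Because whole tissue was measured, a larger number of cells of a type and more RNA per cell cannot be told apart in any value below.

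The signals are MAS5 values per probe set, on a linear scale in arbitrary units, with a trimmed mean of 500.08 to 500.10 units on each array. Comparisons were made on log2(signal + 24), where 24 is about the 20th percentile of all signals, so fold changes of dim genes are understated. Of 14301 probe sets bright enough to test, limma with Benjamini-Hochberg adjustment called 14, which were 14 higher and 0 lower in HHcy. With every array scaled to 1 median, 22 were called, 15 higher and 7 lower. The median log2 fold change over all tested probe sets was 0.15, and it was 0.011 with quantile scaling and -0.18 with median scaling, so small differences are read against that shift.

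The array of HHcy 6 stood apart from the others. Its 10 cardiomyocyte markers, all tested, had a median log2 difference from the control mean of -4.89, against -0.22 to 0.067 on the other HHcy arrays. Their summed signal, 195414 to 306882 in the controls, was 15985 there, and the 4 tested smooth muscle markers summed to 63167, against 3284 to 11597 in the controls. For actin, the signal at the 3' end over that at the 5' end, which rises as RNA breaks down, was 599.6 on HHcy 6 and 15.3 on HHcy 5. It was 0.378 to 2.49 in the controls. For GAPDH the same ratio was 17.2, 10.5, 5.14 and 3.56 on HHcy 5 to 8, and 1.46 to 3.76 in the controls. The 3'/5' ratio used as a covariate below is the mean log2 ratio of actin and GAPDH. Values without one or both of these arrays are given beside those of several genes.

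None of the cytokine and IL6 pathway members passed the test. Of the 13 probe sets 6, of 5 genes, were bright enough, and limma called 0 of the 6, where 0.0979% of all tested probe sets were called (0.0979% higher and 0% lower). At an unadjusted p under 0.05 limma found 2 of the 6, IL1B and TLR4, both with the higher mean in HHcy, against 17.8% of all tested probe sets (11.9% higher and 5.94% lower). HHcy and control signals overlapped for every one of the 6, while they did not overlap for 11.4% of all tested probe sets. The median log2 fold change was 0.24 over the 6 probe sets, against 0.15 over all. Without HHcy 5 and HHcy 6, IL1B was the 1 probe set of the 6 at an unadjusted p under 0.05, against 4.07% higher and 4.2% lower over all tested probe sets in that fit, and limma again called 0. Without HHcy 6 alone they were IL1B and, with the lower mean, NFKBIA, against 8.5% higher and 6.27% lower over all. The plot of fold changes with their intervals shows the 13 probe sets together.

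**Figure D1:**
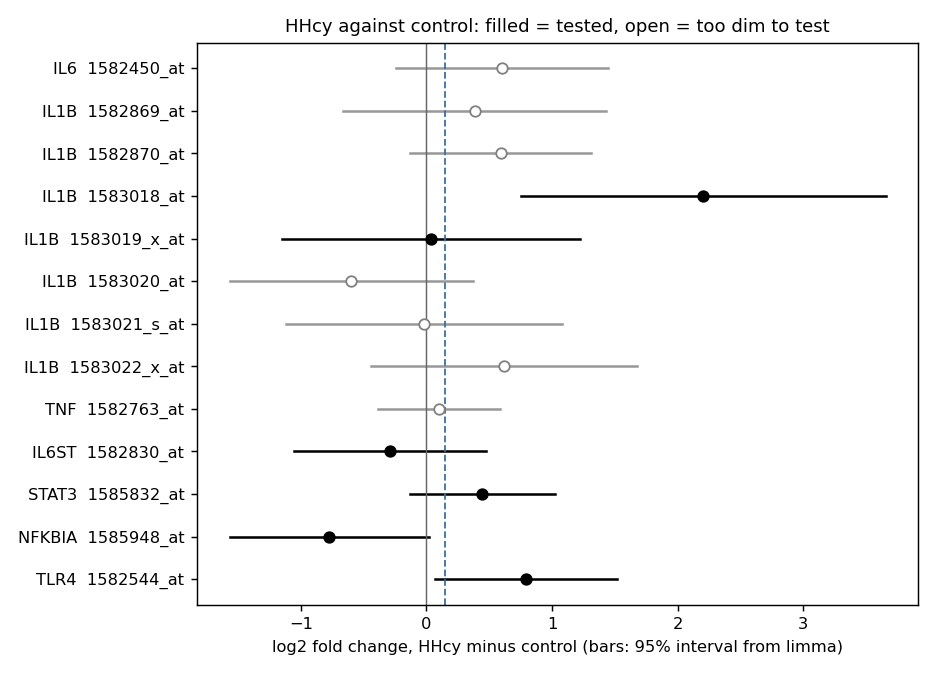
Log2 fold change (x axis, HHcy minus control, on the log2(signal + 24) scale) of the 13 member probe sets (y axis), with bars for limma's 95% interval and 4 dogs per group. Filled points were bright enough to test, open points were not and come from the fit with no filter, and the dashed line is the median of all tested probe sets, 0.15; the bars of IL1B 1583018_at and TLR4 lie wholly above 0.

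Of the cytokines, IL6 was dim on this array. Its signal was 41.4, 13.2, 3.64 and 9.25 in controls 1 to 4, and 30.6, 32.1, 14.2 and 77.1 in HHcy 5 to 8. Controls 2, 3 and 4 and HHcy 7 lay under the added constant of 24, and control 1 lay above 3 of the 4 HHcy dogs, so the groups overlapped widely. The control mean was 16.9 ± 16.8 and the HHcy mean 38.5 ± 27.0 (SD, n = 4 each). The log2 difference was 0.60 with a 95% interval from -0.24 to 1.44, and an exact two-sided permutation test over the 70 assignments of the arrays gave p = 0.229, where the smallest it can give is 0.0286. In the limma fit with no filter on dim probe sets the adjusted p was 0.493. The log2 difference was 1.03 with a constant of 6 and 0.24 with one of 96, and 0.34 without HHcy 8, the dog with the highest signal.

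TNF, the cytokine tumor necrosis factor, gave signals under the constant on all 8 arrays. They were 8.01, 11.6, 14.7 and 9.99 in the controls, and 14.0, 12.4, 15.4 and 12.02 in HHcy. All of these values lay within a narrow band, and at such signals a difference in TNF transcript was not detectable. The log2 difference was 0.099 with a 95% interval from -0.39 to 0.59 (exact permutation p = 0.2), and it turned to -0.056 with quantile scaling and -0.022 with median scaling. No fold is given for TNF, since both groups lie under the constant.

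**Figure D2:**
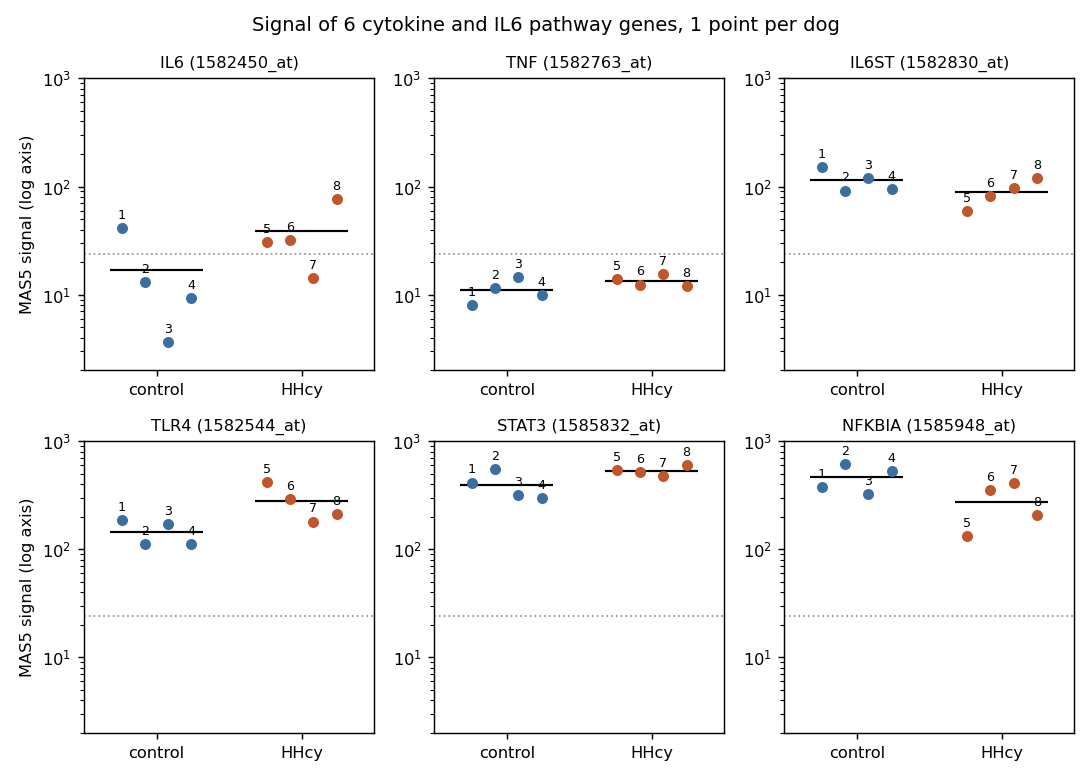
MAS5 signal (y axis, log scale, arbitrary units) of the IL6, TNF, IL6ST, TLR4, STAT3 and NFKBIA probe sets in control and HHcy dogs (x axis), 1 numbered point per dog with a line at the group mean and a dotted line at the added constant of 24. TNF lies under that line on every array, and in each of the 6 panels at least 1 HHcy dog lies within the range of the controls.

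IL1B, the precursor of interleukin 1 beta, had the largest mean difference among the members, on 1 of its 7 probe sets. On 1583018_at the signal was 1365, 454, 205 and 60.4 in controls 1 to 4, and 1574, 2199, 1259.7 and 1241 in HHcy 5 to 8. Every HHcy dog lay above 3 of the controls, but control 1 lay within the HHcy range. The 4 HHcy dogs differed from each other by 1.77-fold at most and the 4 controls by 22.6-fold. The control mean was 521 ± 586 and the HHcy mean 1568 ± 447 (SD, n = 4 each). The log2 fold change was 2.20 ± 0.66 (SE) with a 95% interval from 0.75 to 3.65, a 4.60-fold difference, which did not pass (limma adjusted p 0.162, 0.0876 to 0.906 among the settings tried).

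The 1583018_at difference kept its direction in all 20 alternatives tried, and was called in 0 of them. It was 2.03 without HHcy 6 and 1.92 without both HHcy 5 and HHcy 6 (adjusted p 0.591). Single controls moved it more: it was 2.88 without control 1, the highest of that group, and 1.54 without control 4, the lowest. The exact permutation test gave p = 0.0857.

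The other IL1B probe sets did not show that difference. The array carries 2 probe sets designed from one IL1B sequence record and 5 from another, and 1583018_at is of the latter. Probe sets whose names end in _x_at or _s_at can also bind other transcripts. On 1583019_x_at, from the same record, the signal was 329, 143, 138 and 97.5 in the controls, and 397, 269, 44.7 and 128 in HHcy. HHcy 5 was the highest and HHcy 7 the lowest of all 8 dogs there, so the HHcy dogs spanned the controls on both sides. Its log2 fold change was 0.038 ± 0.54 (SE, limma adjusted p 0.976). It turned to -0.20 with quantile scaling, -0.29 with median scaling and -0.85 without HHcy 5 and HHcy 6.

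The remaining 5 IL1B probe sets were too dim to test. Their log2 differences ran from -0.60 on 1583020_at to 0.62 on 1583022_x_at, with limma adjusted p from 0.428 to 0.989 in the fit with no filter. The differences of 1582869_at, 1582870_at and 1583022_x_at were above 0, at 0.38, 0.59 and 0.62. Those of 1583020_at and 1583021_s_at were below it, at -0.60 and -0.020. Without HHcy 5 and HHcy 6 these 5 were 0.067, 0.53, 0.23, -1.06 and -0.61 in the same order. On 1582870_at all 4 controls lay between 4.92 and 9.03 and all under the constant, while HHcy 6 and HHcy 8 reached 43.7 and 49.8. HHcy 5 and HHcy 7 stayed at 11.2 and 3.54 on that probe set. Taken over the 7 probe sets, 5 had the higher log2 mean in HHcy and 2 the lower, and control 1, high on 1583018_at and 1583019_x_at, was the lowest control on 1582869_at (4.30) and 1583022_x_at (2.90).

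**Figure D3:**
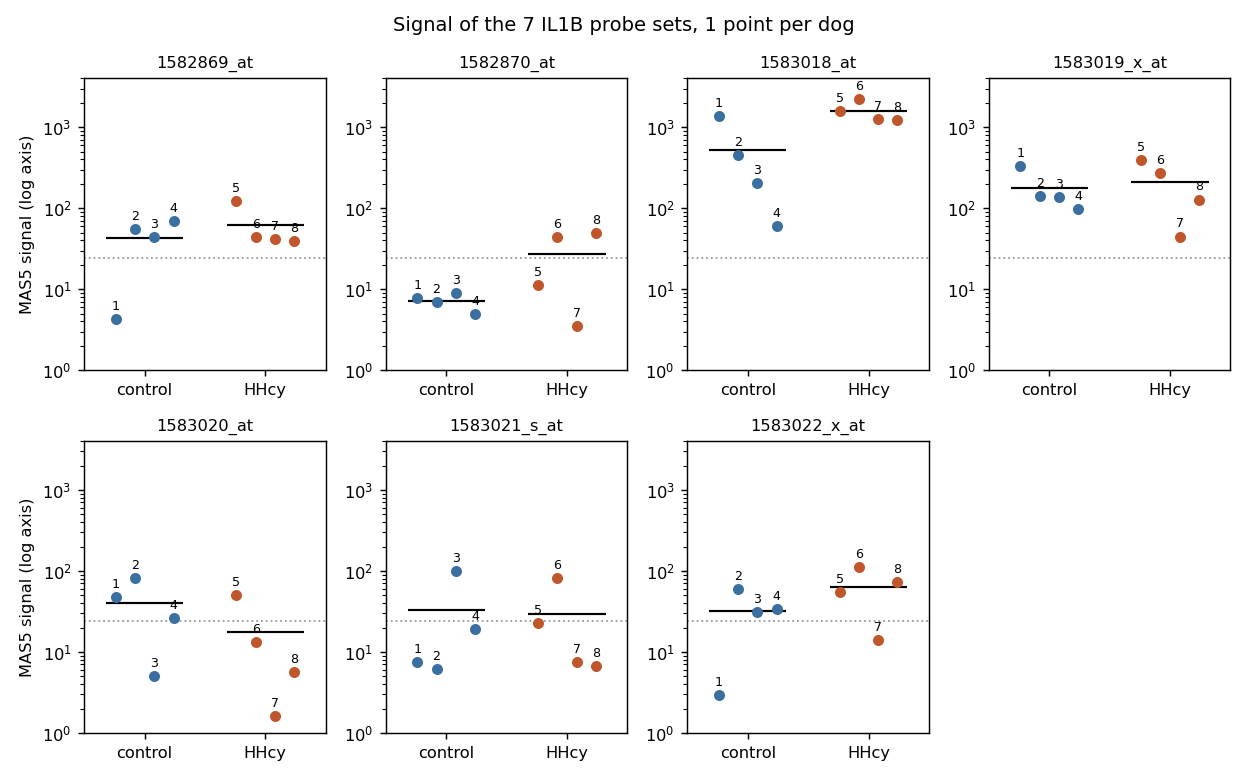
MAS5 signal (y axis, log scale, arbitrary units) of each of the 7 IL1B probe sets in control and HHcy dogs (x axis), 1 numbered point per dog with a line at the group mean and a dotted line at the added constant of 24. On 1583018_at the HHcy dogs lie between 1241 and 2199 and controls 2 to 4 below them, and no other probe set shows that pattern.

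Of the receptors, IL6ST (gp130), the signal-transducing chain shared by the IL6 family, had a slightly lower mean in HHcy. Its signal was 151, 91.9, 119.5 and 95.003 in the controls, and 59.3, 82.6, 97.0 and 120.2 in HHcy. HHcy 5 and HHcy 6 lay under all controls, and HHcy 7 and HHcy 8 lay within their range. The log2 fold change was -0.29 ± 0.35 (SE, limma adjusted p 0.669) with a 95% interval from -1.05 to 0.47. Without HHcy 5 and HHcy 6, the dogs whose arrays had the highest actin 3'/5' ratios, it was -0.046.

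TLR4, the receptor for bacterial lipopolysaccharide, had the higher mean in HHcy. Its signal was 188, 111, 171 and 111 in the controls, and 422, 293, 180.5 and 211 in HHcy. HHcy 5, 6 and 8 lay above all controls, and HHcy 7 lay between the highest control and the next. The control mean was 145 ± 40.1 and the HHcy mean 277 ± 108 (SD, n = 4 each). The log2 fold change was 0.79 ± 0.33 (SE), a 1.73-fold difference, which did not pass (limma adjusted p 0.248, 0.204 to 0.933 among the settings tried; exact permutation p = 0.0571). The highest values were those of HHcy 5 and HHcy 6. Without these 2 dogs the log2 fold change was 0.40, and it was also 0.40 once the 3'/5' ratio was a covariate. It was 0.57 with quantile scaling and 0.47 with median scaling.

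STAT3, the transcription factor that gp130 activates, was even within the HHcy group, whose dogs differed by 1.26-fold at most. Its signal was 414, 550.5, 315 and 299.8 in the controls, and 545, 515, 475 and 599 in HHcy. All HHcy dogs lay above controls 1, 3 and 4, and control 2 lay among them. The means were 395 ± 115 and 533 ± 52.2 (SD, n = 4 each). The log2 fold change was 0.45 ± 0.26 (SE, limma adjusted p 0.386, 0.199 to 0.916 among the settings tried), with a 95% interval from -0.13 to 1.02. It was 0.46 without HHcy 6 and 0.45 without HHcy 5 and HHcy 6, but 0.10 with median scaling. These values are of the transcript, and the phosphorylated protein that carries the signal was not measured.

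NFKBIA, which encodes the inhibitor IkB-alpha and is itself a target of NF-kB, had the lower mean in HHcy. Its signal was 378, 619, 322 and 532 in the controls, and 131, 349.8, 412 and 207 in HHcy. HHcy 5 and HHcy 8 lay under all controls, while HHcy 6 and HHcy 7 lay within their range. The means were 463 ± 137 and 275 ± 128 (SD, n = 4 each). The log2 fold change was -0.77 ± 0.36 (SE, limma adjusted p 0.290, 0.189 to 0.931 among the settings tried), with a 95% interval from -1.57 to 0.022. It was -0.92 without HHcy 6, -0.57 without HHcy 5 and HHcy 6, and -0.49 without HHcy 5 alone.

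Across the 8 dogs, the tested members did not all follow one another. As a description over 8 arrays that share their group, tissue makeup and RNA quality, TLR4 and NFKBIA ran in opposite directions (Pearson r = -0.86). IL1B on 1583018_at ran with STAT3 (r = 0.78) and with TLR4 (r = 0.73), while its correlation with the other tested IL1B probe set was 0.42. IL6ST had r = -0.48 with TLR4 and -0.14 with IL1B on 1583018_at. HHcy 5 held the highest TLR4 and the lowest NFKBIA and IL6ST of all 8 dogs. HHcy 6 held the highest IL1B on 1583018_at, and HHcy 8 the highest IL6 and STAT3.

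Among 5014 other genes, those most like each member over the 8 arrays were picked by Pearson r, so high values are the product of that search. For IL1B on 1583018_at they were RPL11 (r = 0.99), a ribosomal protein, SLC38A3 (r = 0.98), a glutamine transporter, and CCL2 (r = 0.97), a monocyte-attracting chemokine. For TLR4 they were FEN1, KCNH7 and ADTRP (r = 0.96, 0.95 and 0.94). For STAT3 they were RBM20, a splicing factor of the heart, PDE4D, a cyclic AMP phosphodiesterase, and AGPAT4 (r = 0.99, 0.98 and 0.96). NFKBIA was closest to NAA35, PGRMC2 and FAIM (r = 0.98, 0.97 and 0.93). IL6ST was closest to DYRK1B, MARCHF2 and SRD5A1 (r = 0.93, 0.92 and 0.86), and the first of these was 0.67 without the 2 dogs farthest from the IL6ST median.

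Beyond the members, 126 genes of the same pathways were listed by role, 39 of them had a probe set of their own and 29 were bright enough to test. SAA1 was the 1 gene of the 29 that limma called, where 0.14% of all tested genes were called on their brightest probe set. At an unadjusted p under 0.05, 12 of the 29 (41.4%) had the higher mean in HHcy and 1 (3.45%) the lower, against 11.6% and 4.73% of all tested genes. The HHcy dogs lay above every control for 9 of the 29, against 8.3% of all tested genes. The median log2 fold change was 0.42, against 0.14 over all tested genes. Of the 29, 18 (62.1%) had a log2 fold change above 0, close to the 59.9% of all tested genes. Without HHcy 5 and HHcy 6, 7 of the 29 had the higher mean at an unadjusted p under 0.05, against 4.67% of all tested genes, and the HHcy dogs lay above every control for 10, against 13.7%. The lists were drawn up with earlier results of these data known, among them the SAA1 and TIMP1 values, so these counts are not independent evidence.

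In the IL1 system, 3 of the 4 tested genes, IL33, NLRP3 and IL18BP, had HHcy signals above every control. Limma called 0 of the 4, and 3 had the higher mean in HHcy at an unadjusted p under 0.05. Over all tested genes 11.6% did so, and for 8.3% the HHcy dogs lay above every control. The list held 14 genes, of which 7 had a probe set. IL33, an alarmin of the IL1 family released by damaged stromal cells, had signals of 585, 539, 276 and 551 in the controls, and 1713, 3925, 1449 and 854 in HHcy. Every HHcy dog exceeded the highest control, and HHcy 6 was the highest by far. Its log2 fold change was 1.81 ± 0.42 (SE, limma adjusted p 0.121, 0.0598 to 0.906 among the settings tried), and it was 1.41 without HHcy 6 and 1.21 without HHcy 5 and HHcy 6.

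NLRP3, the sensor of the inflammasome that leads to cleavage of pro-IL1B, had signals of 179, 93.6, 138 and 119 in the controls, and 363, 503, 268 and 369.9 in HHcy. The lowest HHcy dog lay above the highest control. Its log2 fold change was 1.35 ± 0.30 (SE, limma adjusted p 0.121, 0.0598 to 0.875 among the settings tried). IL18BP, a decoy that neutralises interleukin 18, differed by 1.12 ± 0.30 log2 units (SE, limma adjusted p 0.148), with every HHcy dog above every control. IL1R2, the decoy receptor for IL1, was the other tested gene of the list and made up its lower end at -0.058. IL1A, IL1RN and IL18 were too dim to test. The 2 probe sets of IL18 had log2 differences of -1.01 and 0.011.

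Of the Toll-like receptors and their adaptors, 4 of 23 genes were tested and limma called 0. CD14, the co-receptor that hands lipopolysaccharide to TLR4, had signals of 308, 120.1, 285 and 149.7 in the controls, and 621, 621, 602 and 479 in HHcy. All HHcy dogs lay above all controls and close to each other. Its log2 fold change was 1.42 ± 0.32 (SE, limma adjusted p 0.121, 0.0598 to 0.875 among the settings tried). TLR9, a receptor for unmethylated DNA, had 0.74 (adjusted p 0.253) on its brightest probe set, while its other tested probe sets had -0.080 and -0.028. TIRAP, an adaptor of TLR4, had 0.29 (adjusted p 0.662), but -0.011 under median scaling.

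Of the JAK-STAT genes, 7 of 24 were tested and limma called 0, with 1 higher and 1 lower at an unadjusted p under 0.05. All tested genes had shares of 11.6% and 4.73% for these directions. Most of the list lay below 0: 3 of the 7 had a log2 fold change above 0, against 59.9% of all tested genes. The median of the list was -0.19, against 0.14 over all tested genes. Its lowest value, -0.90, came from a gene not among those named below. JAK1, a kinase bound to gp130, differed by 0.73 ± 0.29 log2 units (SE, adjusted p 0.240) on its brightest probe set, with every HHcy dog above every control. Its 3 other tested probe sets ran from -0.84 to 0.46, so the JAK1 probe sets disagreed. The lowest adjusted p among those 3 was 0.151, lower than that of the brightest probe set. SOCS5, a member of the SOCS family of brakes, had -0.72 ± 0.30 (SE, adjusted p 0.248), and its other probe set had -0.14. STAT6, the factor of interleukin 4 signalling, had 0.76 ± 0.36 (SE, adjusted p 0.294), and 0.45 without HHcy 6, its highest array.

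Of the IL6 family, 3 of 14 genes were tested and limma called 0. CTF1, cardiotrophin 1, a gp130 ligand that enlarges cardiac myocytes, differed by 0.94 ± 0.35 log2 units (SE, adjusted p 0.214), and another probe set had -0.12. Without HHcy 5 and HHcy 6, its highest arrays, the CTF1 difference was 0.49. LIFR, which pairs with gp130 for leukemia inhibitory factor and cardiotrophin 1, had -0.80 (adjusted p 0.394) on one probe set and 1.26 (adjusted p 0.289) on the other, in opposite directions. IL27RA, which also pairs with gp130, had 0.42 (adjusted p 0.467), 0.079 without HHcy 5 and HHcy 6, and -0.018 once the 3'/5' ratio was a covariate. IL6R, which binds IL6 itself, was not analysed here.

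NFKBID, an atypical nuclear IkB protein, was the 1 tested gene of 13 in the NF-kB list. Its signal was 298, 81.1, 196 and 123 in the controls, and 585, 503, 239 and 477 in HHcy. HHcy 5, 6 and 8 lay above all controls and HHcy 7 did not. Its log2 fold change was 1.32 ± 0.39 (SE, limma adjusted p 0.162), of opposite sign to that of NFKBIA. In the TNF system only BIRC2, an inhibitor of apoptosis, was tested of 15 genes. Its log2 fold change was -0.026 (adjusted p 0.966), and it turned above 0 with array weights (0.11).

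Among acute-phase and STAT3 target genes, 9 of 25 were tested and limma called 1, SAA1. SAA1, a serum amyloid A protein, had signals of 88.6 to 254 in the controls and 1798 to 7473 in HHcy, with an adjusted p of 0.00371. It was called in all 20 alternatives. TIMP1, an inhibitor of metalloproteinases, had 1.96 (adjusted p 0.0613), and FOS, a subunit of the transcription factor AP-1, had 1.19 ± 0.32 (SE, adjusted p 0.144). Signals of both were above every control in every HHcy dog. With array weights TIMP1 and FOS also passed, with adjusted p of 0.0293 and 0.0499, and TIMP1 passed without HHcy 8 (adjusted p 0.0313).

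**Figure D4:**
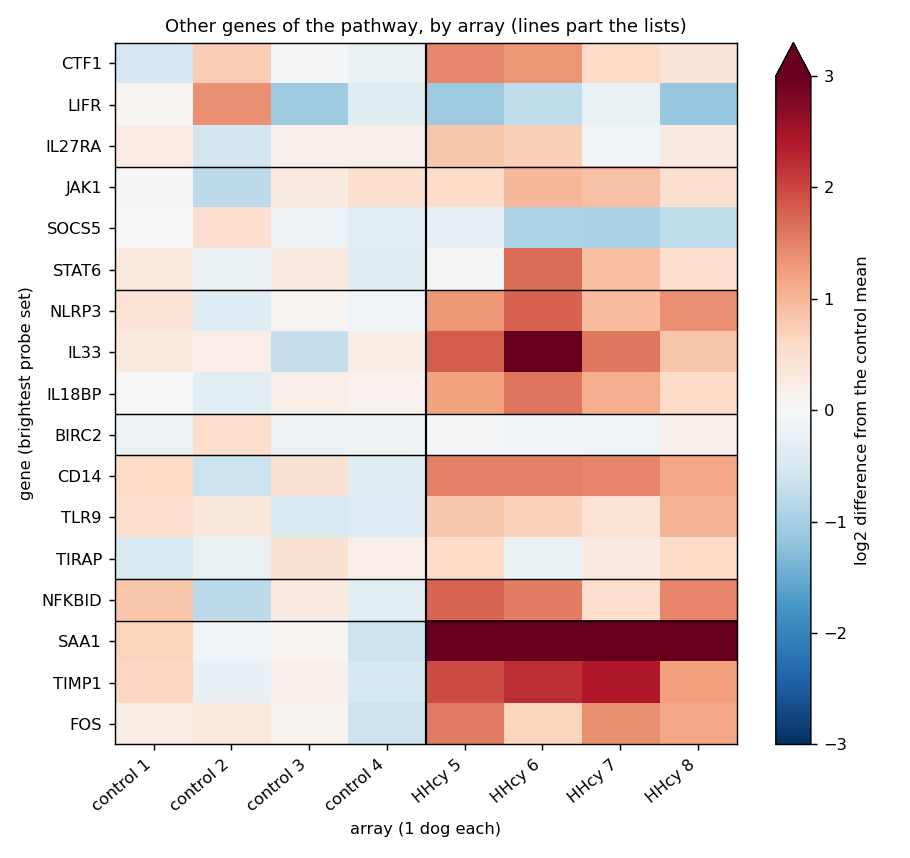
Log2 difference from the control mean (colour, which stops at 3 log2 units) of 17 other pathway genes (rows, lists parted by lines) on each of the 8 arrays (columns), by its brightest probe set. The rows are the called genes and the 3 of lowest p from each list in these same data, so they were picked for their differences. CTF1, JAK1, NLRP3, IL33, IL18BP, CD14, TLR9, NFKBID, SAA1, TIMP1 and FOS are above the control mean in all 4 HHcy dogs. LIFR and SOCS5 are below it in all 4.

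Summed signals of markers differed between the groups for some other cell types and overlapped widely for others. Of 14 monocyte and macrophage markers 12 were tested, 11 had a log2 fold change above 0 and limma called 0 (7 higher and 0 lower at an unadjusted p under 0.05). Over all tested genes, 59.9% were above 0, and 11.6% were higher and 4.73% lower at that p. Their summed signal was 5362 to 7446 in the controls and 9260.3 to 15657 in HHcy, and CD14 is one of them. The 2 tested neutrophil markers, ITGAM and MMP9, summed to 178 to 373 in the controls and 306 to 647 in HHcy, and CXCR2 and ELANE were too dim to test. ITGAM had a log2 fold change of 0.27 and MMP9 one of 1.38, and MMP9 lay under the constant in controls 3 and 4 (14.7 and 14.6). The 3 tested genes of the T and NK cell list, CD3D, CD3E and CD4, summed to 181 to 505 and 632 to 1033. Of these, CD4 alone had signals of 52.1 to 217.5 in the controls and 209 to 779 in HHcy. Its log2 fold change was 1.46 there and -1.29 on its other tested probe set, so the CD4 probe sets disagreed. The group difference in the sum came mostly from CD4, so the sum is not read as a measure of T or NK cells. CD3D and CD3E had 0.56 and 0.38. The 3 tested epithelial markers, KRT8, KRT18 and EPCAM, summed to 54.3 to 254 and 224 to 1586. The 4 tested fibroblast markers summed to 11756 to 17606 and 17582 to 42758. DCN, COL1A1 and COL1A2 had log2 fold changes of 0.76, 1.59 and 2.35, while the much dimmer COL3A1 had -0.48. The 3 tested endothelial markers, PECAM1, VWF and TIE1, summed to 20066 to 27890.1 in the controls and 21490.0 to 31853 in HHcy, with a median log2 fold change of -0.27. The 2 tested adipocyte markers, ADIPOQ and LPL, summed to 377 to 779.9 in the controls, 1999.6 in HHcy 6 and 343 to 465 in the other HHcy dogs. All 10 cardiomyocyte markers had a log2 fold change below 0, with a median of -1.34. Their median log2 difference from the control mean was -4.89 on HHcy 6 and -0.22 to 0.067 on the other HHcy arrays. None of the 10 passed in limma, and 0 had an unadjusted p under 0.05. No marker was listed at a signal of 0 on any array. The part of these cell types in the IL1B, TLR4, NLRP3 and IL33 values was not tested.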

How the data were processed

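The authors deposited 1 signal intensity per probe set and array, on a linear scale. MAS5 is the tool that the submitters' processing notes name, without a version. Neither detection calls nor scanner files entered the work. Arrays were grouped by title. Labels speak of separate dogs and give no batch or date.

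Gene names come from the platform annotation, and no coordinates were used. The 77 control probe sets and then the dimmest 40% by mean log2 value were left out, and groups were compared with limma 3.58.1 in R 4.3.3 (lmFit, eBayes with an intensity trend, Benjamini-Hochberg adjustment at 0.05). Members too dim to test were taken from a fit with no filter. The brightest probe set stood for a gene.

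Members and lists were chosen with earlier results of these data known. Every member probe set was named, and from each list the called genes and the 3 of lowest p. The fit was also run on simulated data of the same comparison (14301 probe sets). It recovered 12% of probe sets with a log2 change of 1, and 50%, 88% and 96% of those with 2, 3 and 4. Noise was drawn independently for each value, so effects on a whole array were left out. That fit made 129 calls, against 14 in the data, so its p cutoff was looser and recovery in the data may be lower. Alternatives changed scaling, constant, filter, variance model, array weights, probe sets per gene and arrays included, or added the 3'/5' ratio as a covariate. Counts at an unadjusted p without HHcy 5 and HHcy 6 were added after seeing the data.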

Additional observations from a re-analysis of the deposited data

Results flagged for a closer look

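On the dim IL1B probe set 1582869_at, HHcy 5 had a signal of 121.6, far from the 39.0 to 44.0 of the other HHcy dogs by Dixon's test. Of 26 groups of 4 dogs looked at this way 1 stood out, and such a test picks out about 1 in 20 groups by chance.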

How the results depend on the processing

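The tested members, IL1B, IL6ST, TLR4, STAT3 and NFKBIA, were called under none of the alternatives that tested them. These were 19 for IL6ST and IL1B on 1583019_x_at, and all 20 for the others. IL6, TNF and the dim IL1B probe sets, testable only in the fit with no filter, were not called there. The count of called probe sets, 14, was 7 with quantile scaling, 22 with median scaling, 9 with the dimmest 60% left out, 76 with array weights, 8 with 1 probe set per gene, 5 without HHcy 5 and HHcy 6, 5 once the 3'/5' ratio was a covariate, and 3 to 31 without single arrays. Called acute-phase genes were 3 with array weights and 1 to 2 without single arrays. IL1B on 1583019_x_at turned to -0.20 with quantile scaling, -0.29 with median scaling, -0.10 with array weights, -0.85 without HHcy 5 and HHcy 6 and -0.77 with the covariate, and ran from -0.35 to 0.53 without single arrays. IL1B on 1583021_s_at ran from -0.41 to 0.44 without single arrays. TNF turned to -0.056 and -0.022 with quantile and median scaling. TIRAP turned to -0.011 with median scaling, and IL27RA to -0.018 with the covariate. BIRC2 turned to 0.11 with array weights, 0.012 without HHcy 5 and HHcy 6 and 0.16 with the covariate, and ran from -0.088 to 0.15 without single arrays. The cause of these changes was not tested. No paired analysis was possible because control arrays are numbered 1 to 4 and HHcy arrays 5 to 8, so the groups share no number. With 4 arrays per group, differences under about 2 log2 units were often missed in simulated data. For the tested members, the intervals therefore bound the log2 differences better than the missing calls do. For IL6, TNF and the dim IL1B probe sets the intervals do not bound the change in transcript, because the added constant shrinks differences at such low signals.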
